A study of Mus musculus with 8 samples.

Results

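A set of 10 genes with over 2-fold more transcript in Ssty2 knockout testis than in wild type is described: Fam122c, Ppp1r2-ps9, Ctag2, Vsig1, Sytl5, Fam47c, 1700003E24Rik, Gm15104, Tcp11x2 and Srsx. They are 10 of the 56748 genes in the table of counts and 10 of the 1041 tested genes, or 4.74% of those tested, that were over 2-fold higher. They were selected on the knockout over wild-type difference in these same libraries, and as genes outside the large amplified families. Their difference between the groups is therefore given as a description, with no test. The comparison was between 4 libraries of adult mouse testis with the genotype Ssty2-/- and 4 of wild-type (WT) adult testis. The strain, the age beyond adult, the number of animals per library and the way the deletion was made were not given in the sources used here. The labels do not say that the libraries of a group came from separate animals, and the tests see only library-to-library spread, which may be technical.

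Mature sperm arise from spermatids, the haploid cells left after meiosis. In the pachytene spermatocyte the X and Y are silenced together, and in spermatids much of both stays in repressive chromatin, from which a set of X-linked genes is nevertheless transcribed. Sly, a multicopy gene of the Y long arm, holds that transcription down, and its X-linked relatives Slx and Slxl1 act against it. Ssty2, also multicopy on the Y long arm, belongs to the Spindlin family, whose proteins bind methylated histones.

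Library totals ran from 18036708 to 24415587 counts, and no library stood apart: r of log2 CPM (counts scaled to a common library size) was between 0.9852 and 0.9918 within groups and between 0.9586 and 0.9667 across them. Ssty2 had no count in the 4 knockout libraries and 262 counts in wild type. Sly, another Y-linked multicopy gene, had 1 count in knockout and 796 in wild type, so the loss of Ssty2 and of Sly transcripts cannot be told apart in what follows. Over all 21952 tested genes, 5744 were called higher and 6008 lower (quasi-likelihood test of edgeR, adjusted p under 0.05 by Benjamini-Hochberg). With library totals in place of trimmed mean of M-values (TMM) factors the split was 3848 and 8255, and the median log2 fold change of all genes moved from -0.01 to -0.15. Levels below are TMM-scaled CPM, and fold changes are the knockout over the wild type.

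All 10 genes lay on the X chromosome. Among tested autosomal genes 788 were also over 2-fold higher. The definition of the 10 names no chromosome, but they were chosen with earlier results of these data known. Nothing is therefore read from the 10 genes sharing a chromosome. In the GENCODE annotation 7 were protein-coding, Ppp1r2-ps9 was a transcribed processed pseudogene, that is, a copy of a messenger RNA put back into the genome, and 1700003E24Rik and Gm15104 were long noncoding RNAs. Ppp1r2-ps9, Fam47c and Srsx each had a single exon, Ctag2 had 3 and Sytl5 had up to 17. The word single in their working name held for 7 of the 10: no 31-base word of the transcripts of Fam122c, Ppp1r2-ps9, Ctag2, Vsig1, Sytl5, Fam47c or Tcp11x2 occurred in another gene's transcripts. It did not hold for 1700003E24Rik, which shared 94.3% of its words with BC061195, nor for Srsx, which shared 45.1% of its words with other genes. Gm15104 shared 6.65% of its words, all with 4930453H23Rik. The counting of multiply mapped reads is not described in the sources used, so the counts of these 3 genes are uncertain. Whether the transcripts came from spermatids cannot be told from whole testis.

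The sequences before the starts of the 10 genes were looked at as a description. Each of these genes was selected for its own rise, and shared control of the 10 was not tested. RefSeq promoters (GRCm38.p6) were at hand for 7 of them: Fam122c, Ctag2, Fam47c, Srsx, Sytl5, Tcp11x2 and Vsig1. The 100 bases just before the start are shown for the 3 that share a 7-base motif and, as a contrast without it, for Vsig1. Capitals mark GTTGCNA, which resembles the half-site bound by RFX factors, read on either strand. The windows are chrX:53273324-53273423 for Fam122c, chrX:65047544-65047643 for Ctag2, chrX:78737663-78737762 for Fam47c and chrX:140907508-140907607 for Vsig1, all on the plus strand, which is the strand of these genes.
Fam122c: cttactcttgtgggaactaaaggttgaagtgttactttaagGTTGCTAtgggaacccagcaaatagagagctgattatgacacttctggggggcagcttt
Ctag2: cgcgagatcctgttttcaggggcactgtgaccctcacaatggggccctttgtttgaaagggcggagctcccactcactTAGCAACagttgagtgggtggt
Fam47c: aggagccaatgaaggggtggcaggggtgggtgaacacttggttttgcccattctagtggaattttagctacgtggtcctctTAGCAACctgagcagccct
Vsig1: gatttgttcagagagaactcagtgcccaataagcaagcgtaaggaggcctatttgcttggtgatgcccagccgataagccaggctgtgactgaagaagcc

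In the 250 bases before the start, GTTGCNA was found in 3 of the 7 promoters, against 8.77% of all 32851 promoters and 10.6% of the 1223 on the X. The match began 59 bases before the start in Fam122c, 22 in Ctag2 and 19 in Fam47c. This motif was picked after these sequences had been read, so its share is a description only. The cyclic AMP response element TGACGTCA, bound by CREM in spermatids, and the TATA-like TATAAA were in none of the 7, against 1.55% and 12.4% of all promoters. ACAATGG, a SOX-type motif, and GGGCGG, a GC box, were each in 1 of the 7, Ctag2, against 3.02% and 32.7% of all. Both strands were searched for each motif, and none of the 5 motifs is contained in another. The GC content of the 7 windows ran from 35.2% in Sytl5 to 49.2% in Tcp11x2, beside a median of 50.4% for X promoters.

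Genes with a possible role in phosphatase control come first. Fam122c belongs to a family whose better known member Fam122a inhibits protein phosphatase 2A. Its level was 106.6, 104.9, 105.6 and 106.5 CPM in knockout libraries 1 to 4 and 33.1, 33.6, 31.5 and 32.7 CPM in wild type. It had the tightest replicates of the 10, with a coefficient of variation (CV) of 0.759% in knockout and 2.68% in wild type, and knockout exceeded wild type by 1.69 ± 0.0558 in log2 (SE, 4 libraries each). Ppp1r2-ps9 is a copy of Ppp1r2, which encodes inhibitor-2 of protein phosphatase 1. It stood at 78.5, 83.9, 72.9 and 82.2 CPM in knockout and at 23.6, 26.3, 25.0 and 24.3 CPM in wild type. Its log2 fold change was 1.68 ± 0.0676, close to that of Fam122c.

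The genes of membranes and vesicles held both the highest level and the largest fold. Vsig1 encodes an adhesion protein of the immunoglobulin superfamily, known from testis and stomach. It had 303.9, 331.5, 292.8 and 291.8 CPM in knockout and 103.8, 115.1, 97.1 and 98.9 CPM in wild type, the highest CPM of the 10 in each library. Its log2 fold change was 1.56 ± 0.0639. Sytl5 encodes a synaptotagmin-like protein that binds Rab27 on secretory vesicles. It was found at 10.8, 11.4, 10.2 and 10.01 CPM in knockout and at 1.96, 2.49, 2.73 and 2.07 CPM in wild type. The lowest knockout library was 3.67 times the highest wild-type one, the widest gap among the 10, and the log2 fold change was 2.19 ± 0.137. Among the 826 other tested X-linked genes 6 had a larger one: Dach2, Gm649 and the copies Btbd35f10, Btbd35f27, Btbd35f2 and Btbd35f12 of an amplified family. This rank is on the difference that chose Sytl5 and is a description.

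Tcp11x2 is the X-linked relative of Tcp11, a t-complex gene linked to sperm motility. It was at 85.2, 103.1, 86.1 and 86.1 CPM in knockout and 35.8, 35.9, 39.6 and 37.7 CPM in wild type, with knockout library 2 above the other 3. Its log2 fold change, 1.27 ± 0.0721, was the second lowest of the 10. Ctag2 is a relative of the human cancer/testis antigen genes. Its values were 133.9, 137.2, 124.1 and 135.6 CPM in knockout and 44.98, 36.3, 36.9 and 36.9 CPM in wild type, where library 1 was the high one. The log2 fold change was 1.78 ± 0.0717. Fam47c, of a family whose function is little known, had 39.2, 43.3, 46.3 and 49.6 CPM in knockout and 15.6, 16.8, 16.4 and 18.3 CPM in wild type (log2 fold change 1.41 ± 0.0836).

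The 3 genes with shared sequence followed. 1700003E24Rik, with no known function, was at 124, 143.2, 118.5 and 124.4 CPM in knockout and at 39.5, 39.8, 39.5 and 42.9 CPM in wild type. Gm15104 was at 140.5, 172.5, 136.4 and 134.4 CPM in knockout and at 40.6, 36.5, 37.7 and 39.2 CPM in wild type. Knockout library 2 was the highest for both. Their log2 fold changes were 1.66 ± 0.0671 and 1.92 ± 0.0783. Srsx is the X-linked partner of Srsy, a serine-rich gene family amplified on the Y long arm. Its reads were few, 104 over the knockout libraries and 52 over the wild type, which came to 1.02, 1.41, 1.61 and 1.22 CPM against 0.566, 0.787, 0.545 and 0.433 CPM. Its lowest knockout library was 1.296 times its highest wild-type library, its CVs were 19.2% and 25.5%, and its log2 fold change was 1.17 ± 0.275.

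**Figure D1:**
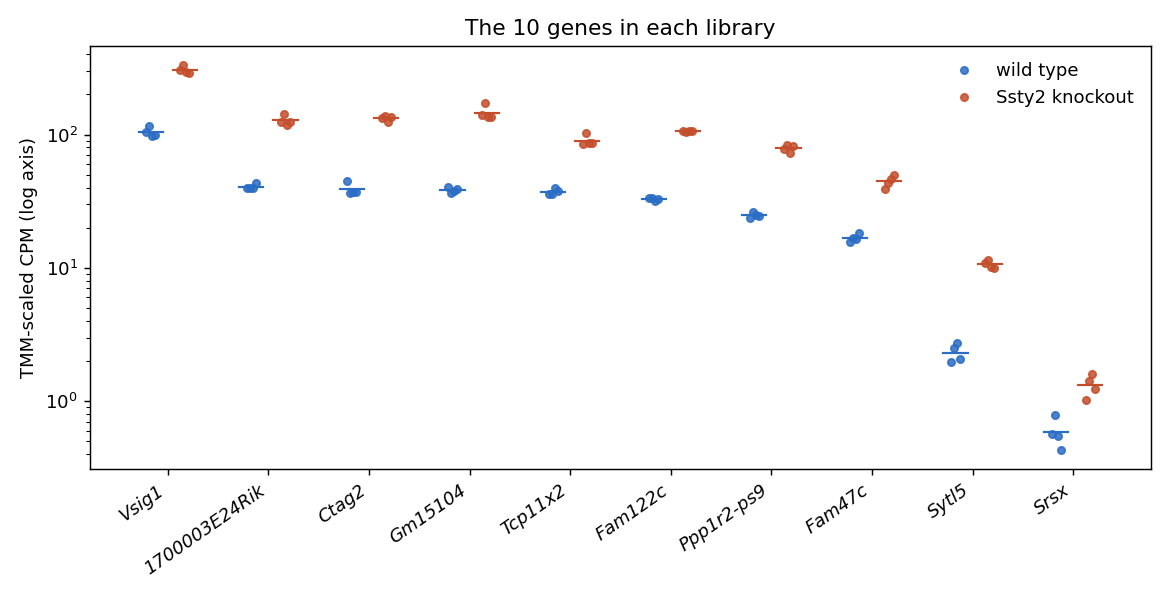
TMM-scaled CPM (log axis) of each of the 10 genes in the 4 wild-type (blue) and the 4 knockout (red) libraries; each point is a library and each bar a group mean. The knockout points lie above the wild-type points for each gene, with the gap narrowest for Srsx.

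The groups did not overlap for any of the 10 genes. Over all tested genes, 22.7% had each knockout library above each wild-type library, 26.2% were called higher and 4.74% were over 2-fold higher, and nothing is read from the members' own count because this contrast chose them. Summed, the 10 genes made up 327 to 344 CPM in wild type and 994 to 1132 CPM in knockout. All 10 passed the filter on low counts, but Srsx, with 9 counts in wild-type library 4, passed only with its knockout libraries counted in. The members nearest to the threshold were Srsx (2.25-fold) and Tcp11x2 (2.42-fold). Just under it, among X-linked genes with a mean log2 CPM of at least 1, were Hypm (1.99-fold), Cypt1 (1.98-fold), a gene of the perinuclear theca, and Tmsb15a (1.97-fold), whose libraries overlapped between the groups.

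Per kilobase of annotated exon, the wild-type level ran from 70.1 CPM per kb in 1700003E24Rik down to 0.538 in Srsx. In between came Gm15104 (45.7), Ctag2 (45.4), Vsig1 (37.5), Fam122c (32.9), Ppp1r2-ps9 (28.1), Tcp11x2 (21.0), Fam47c (10.2) and Sytl5 (1.00). Gm15104 and Ctag2 overlapped in their wild-type libraries, and no other neighbours in this order did. In knockout the levels per kb ran from 221 CPM per kb in 1700003E24Rik to 1.21 in Srsx, and neighbours overlapped for Gm15104 with Ctag2 and Vsig1 with Fam122c. The group means of the 10 genes stood in the same order in knockout and wild type. The largest fold, of Sytl5, and the smallest, of Srsx, both came from the 2 genes with the lowest levels.

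Most markers of spermatids were also higher in knockout, and most markers of Leydig cells, Sertoli cells, spermatogonia, myoid cells and macrophages were lower. In bulk tissue, fewer cells of a type and less RNA per cell cannot be told apart. Of 16 autosomal round spermatid markers 15 rose and none fell, with a median log2 fold change of 0.50 and a highest value of 0.85, beside -0.01 over all tested genes. Their summed level was 2961 to 3379 CPM in wild type and 4641 to 4717 CPM in knockout. Of 14 elongating spermatid markers 13 rose and none fell (median 0.52). All 8 Leydig cell markers fell, as did 8 of 9 Sertoli cell, 8 of 11 spermatogonial, 6 of 12 spermatocyte, 4 of 5 peritubular myoid, 2 of 5 endothelial and 6 of 8 macrophage markers. Over all tested genes 27.4% fell and 26.2% rose, and 6 of the spermatocyte and 3 of the endothelial markers were not called. Among all of these 1 rose, the spermatogonial marker Gfra1, named after its value was seen, and no marker of any list was at 0 in all libraries. The summed Leydig list was 1811 to 2100 CPM in wild type and 942 to 1059 CPM in knockout, and the Sertoli list 419 to 477 and 259 to 297 CPM. The share of these shifts in the members' difference was not tested.

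The 10 genes were also set against the summed round spermatid markers of the same library. Each of the 10 was chosen for an over 2-fold rise, and no round spermatid marker rose that much (highest log2 fold change 0.85). A higher ratio to the marker sum in knockout thus followed from the choice. The ratio was 3.19-fold higher for Sytl5, 2.64-fold for Gm15104, 2.39-fold for Ctag2, 2.25-fold for Fam122c, 2.22-fold for Ppp1r2-ps9, 2.20-fold for 1700003E24Rik and 2.04-fold for Vsig1. For Fam47c it was 1.85-fold, for Tcp11x2 1.69-fold and for Srsx 1.55-fold. The libraries of the groups did not overlap in this ratio except for Srsx, where the lowest knockout value was 0.820 times the highest wild-type value. Against the elongating spermatid markers the ratios ran from 1.48-fold for Srsx to 2.99-fold for Sytl5. These ratios come from the contrast that chose the genes and are a description.

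Relatives of the members were measured in the same libraries. They too were listed with earlier results of these data known, so their counts are a description. Of 24 listed relatives 21 were in the annotation, where Ctag2l1, Ctag2l2 and Tcp11x1 had no match by name, and 16 were tested. Among these 2 rose, 3 fell and 11 did not pass, with a median log2 fold change of -0.10 (background 26.2% higher and 27.4% lower). None of these 16 was over 2-fold higher. The list left out the processed copies of Ppp1r2 and the partners sharing sequence with 1700003E24Rik and Gm15104. Several of those, given below, were over 2-fold higher. Tcp11, the autosomal relative of Tcp11x2, rose from 1446 ± 83.5 to 2041 ± 31.4 CPM (mean ± SD, n = 4; log2 fold change 0.50 ± 0.0506 SE, edgeR adjusted p = 8.74e-07). Igsf11, an immunoglobulin superfamily adhesion gene like Vsig1, rose from 55.8 ± 1.28 to 80.2 ± 4.61 CPM (log2 fold change 0.52, edgeR adjusted p = 2.67e-06). Vsig10 fell by 0.38 on the log2 scale (edgeR adjusted p = 0.000638).

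Some relatives of the members did not share their size of change. Others went with the members: Ppp1r2-ps7 and the partners sharing sequence with 1700003E24Rik and Gm15104, given below, include genes over 2-fold higher. The following were singled out after their values were seen. Fam122a had 14.4 ± 0.899 CPM in wild type and 15.4 ± 1.59 in knockout (edgeR adjusted p = 0.432). Fam122b, which lies next to Fam122c on the X, had a log2 fold change of -0.32 and did not pass (edgeR adjusted p = 0.103), but passed with library totals (adjusted p = 0.0227, the lowest over the 13 alternatives, of which the highest was 0.264). Lage3, an X-linked relative of Ctag2 that encodes a subunit of a transfer RNA modifying complex, fell from 2.63 ± 0.530 to 1.67 ± 0.287 CPM (edgeR adjusted p = 0.0113), with libraries of the groups overlapping. Sytl4, the X-linked relative of Sytl5, fell by 0.45 on the log2 scale (edgeR adjusted p = 0.000805). The difference between a member and its relative was not tested, since 1 side of it was chosen for its value. Srsy had no count in any library, which says little about its transcription while the handling of shared reads is unknown.

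Copies of Ppp1r2 went another way from their parent gene. Ppp1r2 itself stood at 104.0 ± 3.08 CPM in wild type and 104.6 ± 4.18 in knockout (log2 fold change 0.01, edgeR adjusted p = 0.908; -0.13 with library totals, adjusted p = 0.0473, against up to 0.983 over the alternatives). All 6 other processed copies in the annotation were called higher, beside 26.2% of all tested genes. This set was chosen after the values were seen, so the count is a description. Sequence shared among these 6 copies was not searched, and the part of shared reads in their counts was not tested. The call of Ppp1r2-ps4 was lost under 5 of the 13 alternatives, with library totals (log2 fold change 0.19, adjusted p = 0.176), with no filter and without knockout library 4, wild-type library 2 or wild-type library 4 (edgeR adjusted p 0.0531 to 0.176 over the 5). The X-linked Ppp1r2-ps7 rose from 27.7 ± 2.57 to 74.0 ± 6.14 CPM (log2 fold change 1.42, edgeR adjusted p = 1.26e-09). Of the autosomal copies, Ppp1r2-ps6 rose by 1.29 on the log2 scale, from 5.79 ± 0.801 to 14.1 ± 0.830 CPM. Ppp1r2-ps1 rose by 2.15 from a low wild-type level of 2.34 CPM, with knockout libraries spread from 4.13 to 19.5 CPM. The other three autosomal copies had log2 fold changes of 0.33 to 0.96. A rise was thus seen in copies on and off the X.

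**Figure D2:**
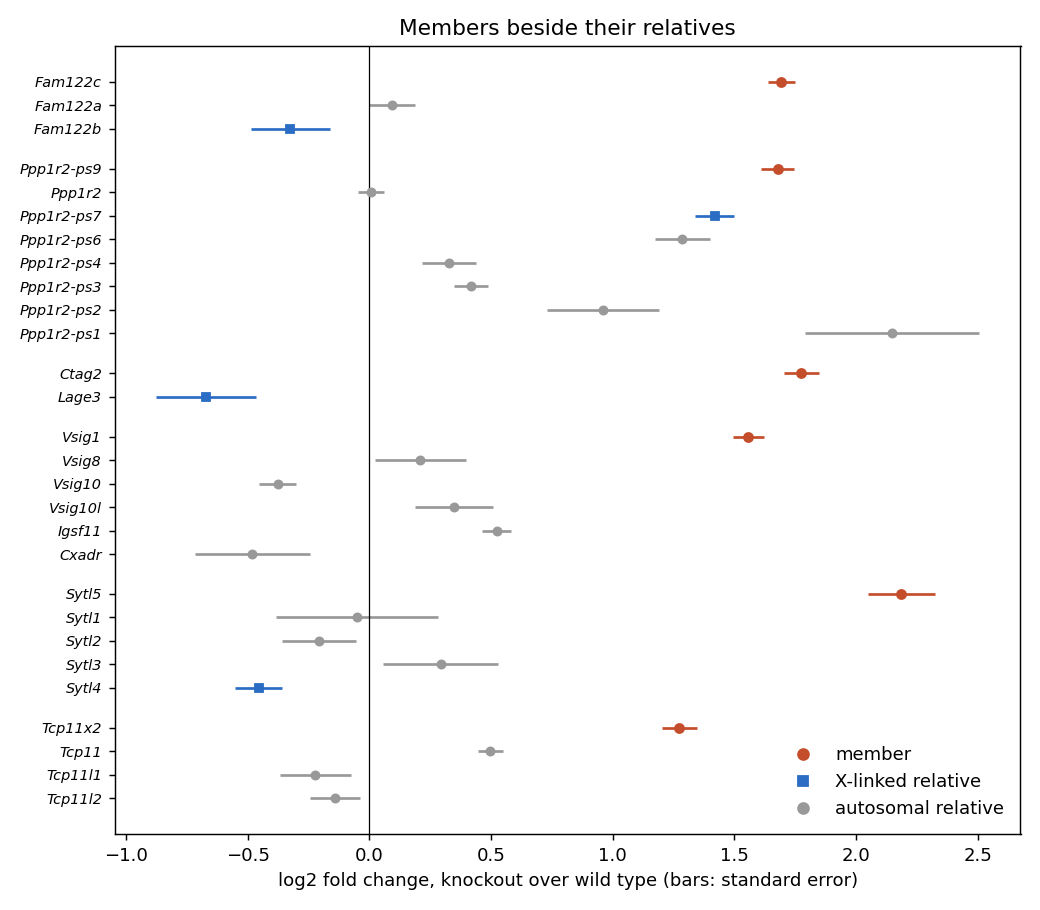
Log2 fold change, knockout over wild type, with its standard error, of 6 members (red) and of their tested relatives, including the other processed copies of Ppp1r2, on the X (blue squares) and on autosomes (grey). The members lie between 1.27 and 2.19, and among the relatives only copies of Ppp1r2 exceed the 0.52 of Igsf11.

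The partners that share sequence with the 3 uncertain members were examined next. For 1700003E24Rik these were 6 X-linked genes with over 1% of its words, of which 5 were tested and all 5 rose. BC061195 rose from 58.2 ± 3.42 to 155 ± 12.8 CPM (log2 fold change 1.41, edgeR adjusted p = 1.85e-10) and 1700084M14Rik, with 38.4% of the words, from 38.5 ± 2.82 to 132 ± 14.3 CPM (log2 fold change 1.78, edgeR adjusted p = 9.57e-11). 1700010D01Rik, Gm5941 and Gm9059 had log2 fold changes of 1.45, 1.35 and 1.59. The partner of Gm15104, 4930453H23Rik, rose from 10.2 ± 0.941 to 35.3 ± 6.60 CPM (log2 fold change 1.79, edgeR adjusted p = 9.50e-09). The 10 partners of Srsx that are in the table of counts, Srsy included, lay on the Y, where reads were few. Of these, Gm21882 had 13 counts in wild type and none in knockout, and the rest had at most 1 count per group. The part of shared reads in these counts was not tested.

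Across the X as a whole, the change went both ways. Of the 826 tested X-linked genes other than the 10, 294 rose and 344 fell, or 35.6% and 41.6%, against 25.9% and 27.0% of the 20515 autosomal genes (edgeR, adjusted p under 0.05). Over 2-fold higher were 196 of these X-linked genes, or 23.7%, against 3.84% of autosomal genes, while the median log2 fold change was -0.25 on the X and -0.01 on autosomes. The 10 genes were thus 10 of 206 X-linked genes past that threshold. The 206 include copies of amplified families, such as Btbd35f10 (log2 fold change 3.14) and H2al1a (2.09), which the 10 were chosen to lie outside. How reads shared among such copies were counted is unknown. Between 6 (for Sytl5) and 156 (for Srsx) other X-linked genes had a larger fold change than a given member.

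**Figure D3:**
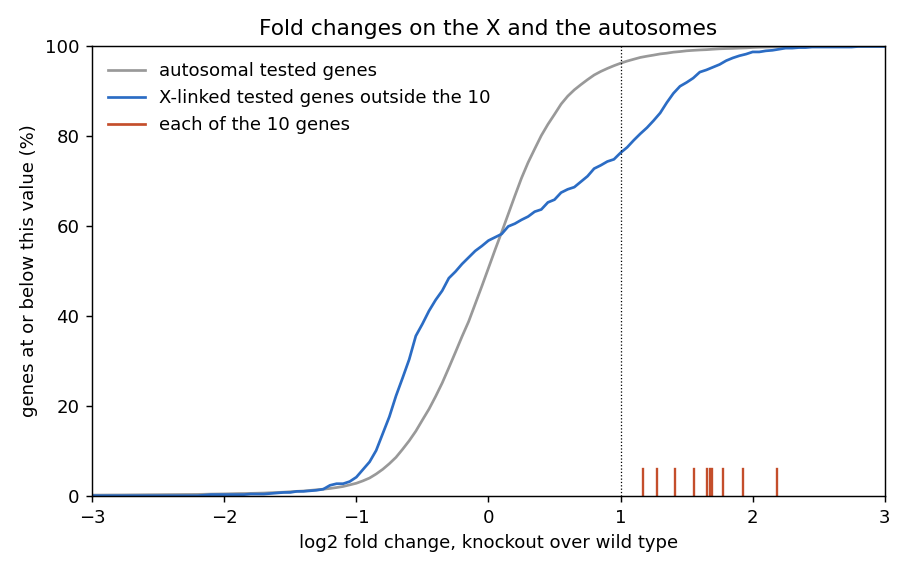
Cumulative share of tested genes at or below each log2 fold change, for autosomal genes (grey) and X-linked genes other than the 10 (blue); red ticks mark the 10 genes and the dotted line the 2-fold threshold. At the threshold 23.7% of these X-linked genes and 3.84% of autosomal genes lie to the right.

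Other X-linked genes of the germ line went mostly the same way. Of 17 such genes, listed with earlier results of these data known, 11 rose, 3 fell and 3 did not pass, and 7 were over 2-fold higher (median log2 fold change 0.70). Over the X outside the 10, 35.6% rose, 41.6% fell and 23.7% were over 2-fold higher, and over all tested genes 26.2%, 27.4% and 4.74%. Because of how the 17 were listed, their counts are a description. Actrt1, an actin-related gene of the sperm head, rose by 1.95 on the log2 scale, Tex13a by 1.46 (50.9 ± 4.44 to 140 ± 8.29 CPM, edgeR adjusted p = 1.79e-10) and Akap14, an anchoring protein of the flagellum, by 1.63 (12.3 ± 0.994 to 38.2 ± 4.02 CPM, edgeR adjusted p = 1.26e-09). The 3 that fell, named after their values were seen, were Tex16 (-0.70), Tex13b (-0.65) and Tktl1 (-0.62). Of 29 broadly expressed X-linked genes 8 rose, near the share over all genes, and 17 fell, and none was over 2-fold higher (median -0.25). The ubiquitin ligase scaffold gene Cul4b rose by 0.74, and for ribosomal protein genes the values were -0.83 (Rpl10) and -0.82 (Rps4x). A list of sex chromatin regulators had 19 tested genes, of which 5 rose and 10 fell, beside 26.2% and 27.4% of all tested genes, so the rises are near the share over all genes. Besides Ssty2 and Sly, the smallest p was that of Zfy2, a Y-linked zinc finger gene, which rose by 1.05.

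The 10 genes were spread along the X. In the order of the 836 tested X-linked genes they took places 71 (Sytl5), 94 (Ppp1r2-ps9), 240 (Fam122c), 292 (Ctag2), 405 (Fam47c), 444 (1700003E24Rik), 592 (Srsx), 642 (Tcp11x2), 690 (Vsig1) and 719 (Gm15104). No 2 of them were next to each other. The tested genes directly before and after each member made 20 neighbours, of which 13 rose, 4 fell and 8 were over 2-fold higher, beside 35.6%, 41.6% and 23.7% over the X. The median log2 fold change of the neighbours was 0.91. Those over 2-fold higher were H2al1n, H2al3, Astx6, Astx2, Gm14674, Gm8761, BC061195 and Gm5941. Genes of the H2al and Astx families have further copies on the X. Shared control of members and neighbours was not tested. BC061195 and Gm5941, which flank 1700003E24Rik and share sequence with it, and H2al3, a histone variant gene before Sytl5 (1.24), had the smallest p. At Vsig1 the neighbours went apart, with Tex13b lower (-0.65) and the proteasome chaperone gene Psmd10 higher (0.44). Both tested neighbours of Gm15104, Gm15091 (-1.10) and Tmem29 (-0.71), fell. Gm15091, with 31 counts in knockout and 76 in wild type, lost its call with DESeq2 and without knockout library 1 or wild-type library 2 (adjusted p 0.061 to 0.133 over the 3). At Fam122c, Mospd1 fell by 0.55 on the log2 scale.

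**Figure D4:**
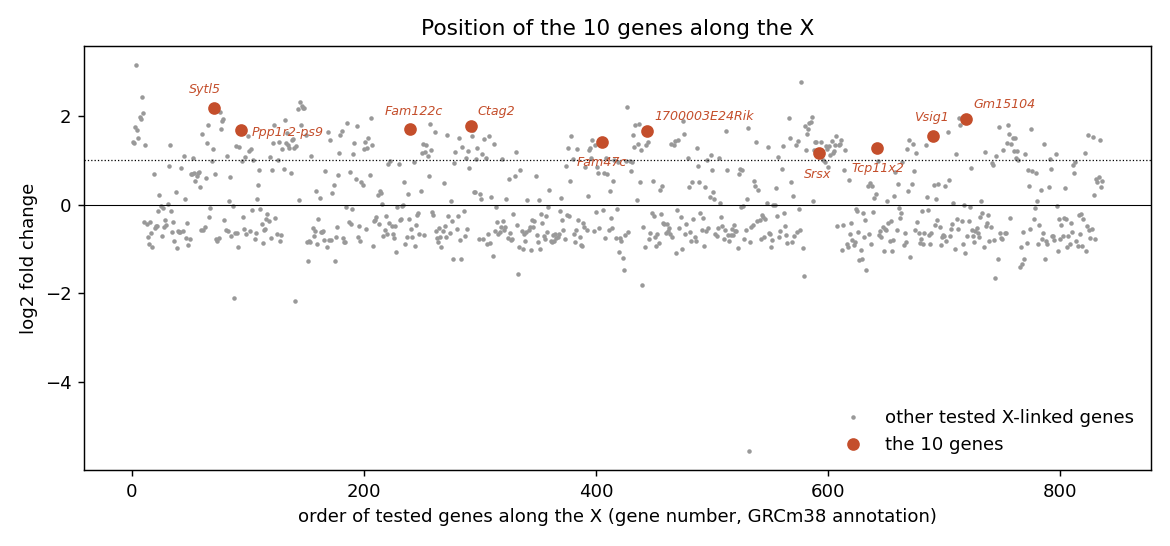
Log2 fold change, knockout over wild type, of the 836 tested X-linked genes in the order of the GRCm38 annotation; red points are the 10 genes and the dotted line is the 2-fold threshold. The 10 genes lie from place 71 to place 719, among both raised and lowered genes.

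The genes most like the members were found by the root mean square distance of log2 CPM, centred per gene, from the members' mean profile over the 8 libraries. That profile holds the step between the groups for which the members were chosen, so a gene without such a step lies far from it. The distances are therefore a description. The 6 nearest were Gm14983 (0.06), 4930402K13Rik (0.08), Ighv1-84 (0.08), Cpxcr1 (0.10), Gm5947 (0.10) and 1700104B16Rik (0.10), beside a median of 0.83 over 16456 genes. Of these, 4 are on the X, while Ighv1-84 is on chromosome 12 and 1700104B16Rik on chromosome 8. Cpxcr1 had 31.1 ± 3.22 CPM in wild type and 94.1 ± 7.55 in knockout, and 1700104B16Rik had 17.2 ± 0.515 and 48.1 ± 1.52 CPM. Among the members Ppp1r2-ps9 (0.06), Vsig1 (0.06), Fam122c (0.07) and 1700003E24Rik (0.07) were nearest to their own mean, and Sytl5 (0.30) and Srsx (0.35) farthest.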

How the data were processed

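RNA of adult mouse testis was sequenced in 4 Ssty2 knockout and 4 wild-type libraries. The authors deposited raw counts per Ensembl gene, with no normalization; the tools listed in the submitters' processing notes are STAR, featureCounts, Trimmomatic, FastQC and DESeq2, and the build is mm39. Tool versions, settings, strand and the counting of multiply mapped reads are not described there, so near-identical copies and overlapping genes cannot be separated. Genes were named and ordered, and exons measured, by GENCODE vM21 (GRCm38), which matched 52125 of 56748 genes. Counts were tested with edgeR 4.0.16 (R 4.3.3): filterByExpr (minimum count 10, total 15), TMM, quasi-likelihood test with genotype as the only term, Benjamini-Hochberg over 21952 genes, called under 0.05. The test was also run on simulated counts in which few genes changed, evenly up and down. In these data 5744 genes rose and 6008 fell, so that run does not check the scaling used here. CPM are TMM-scaled; the log2 CPM used for distances had a prior count of 2. No 2 libraries agreed within sampling noise (chi-square per degree of freedom 4.52 to 9.40). The members and lists were chosen with earlier results of these data known. Named were each member, up to 3 genes of each list with the smallest p, the 6 nearest profiles, the 3 X-linked genes of mean log2 CPM at least 1 just under the threshold and up to 3 neighbours; others are marked as named after their values were seen. The 13 alternatives were other scalings, DESeq2 1.42.0, no filter, a replicate block and leaving out each library.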

Additional observations from a re-analysis of the deposited data

Results flagged for a closer look

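In 8 of 102 groups of 4 libraries examined, over the members and the named genes near them, 1 library lay apart from the other 3; chance flags about 1 in 20 groups. Ctag2 was at 44.98 CPM in wild-type library 1 and between 36.3 and 36.9 CPM in the others. 1700003E24Rik was at 42.9 CPM in wild-type library 4 and between 39.5 and 39.8 CPM in the others. Knockout library 2 was the high one for Gm15104 (172.5 CPM against 134.4 to 140.5), Tcp11x2 (103.1 CPM against 85.2 to 86.1) and Gm14983 (22.1 CPM against 19.2 to 19.5). Vsig10 was at 37.3 CPM in wild-type library 2 and between 31.2 and 31.8 CPM in the others. Lage3 was at 2.10 CPM in knockout library 4 and between 1.503 and 1.55 CPM in the others. Tmem29 was at 10.7 CPM in knockout library 4 and between 9.29 and 9.48 CPM in the others.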

How the results depend on the processing

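Over the 13 alternatives each of the 10 members stayed over 2-fold higher, with log2 fold changes from 1.03 (Srsx) to 2.28 (Sytl5). Their median, 1.67, was 1.52 when scaled by library totals alone, which shifts the median of all genes from -0.01 to -0.15, and 1.62 to 1.70 without 1 library. With library totals 8 relatives of the members were called lower in place of 3, while 2 or 3 were called higher under each setting. The 294 rises among the other X-linked genes ranged from 272 (library totals) to 308 (no filter), and the 344 falls from 299 (without wild-type replicate 2) to 394 (library totals). DESeq2 called 5442 genes higher and 5692 lower. Whether the replicate numbers pair the libraries was not settled. Deviations of same-numbered libraries correlated only weakly, at 0.00 to 0.08, but 5 of 8 libraries correlated best with their own number. With the replicate number as a block 5915 genes were higher and 6203 lower, and the median of the members was 1.67. Of the genes named beside the members, 2 lost their call, Ppp1r2-ps4 under 5 alternatives and Gm15091 under 3, and no called gene changed direction. Fam122b (-0.47, adjusted p = 0.0227) and Ppp1r2 (-0.13, adjusted p = 0.0473) gained one with library totals, and the endothelial marker Tek gained one under 3 alternatives (adjusted p 0.0117 to 0.202 over all). At 52 and 104 counts, Srsx is limited by depth.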
